A study of Homo sapiens with 6 samples.

Results

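CIITA, CD74, HLA-DRB1 and HLA-DRB5 are the 4 genes described here, of the 16551 in a table of RNA counts from a keratinocyte line. They were taken by gene symbol, each symbol was found once, and all 4 passed the filter on low counts, as did 12264 genes in all. The symbols were chosen by their levels in the comparison of these same libraries, so the difference between the groups is given as a description, with no test. The libraries came from HaCaT, a spontaneously immortalised human keratinocyte line, in a study whose title names psoriasis and Wnt signaling. There were 3 libraries of a group labelled si-YTHDF2, the usual notation for a small interfering RNA against YTHDF2, and 3 of a group labelled NC, which the design text calls si-NC. No cytokine or other agent is named for either group, and all RNA was depleted of rRNA. Whether replicates 1 to 3 were separate cultures is not said, and the p-values then speak only of the spread among the libraries at hand, possibly a technical one.

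MHC class II molecules are pairs of an alpha and a beta chain that show peptides from the endocytic route to CD4 T cells. B cells, dendritic cells and macrophages make them constitutively, and keratinocytes can make them after interferon-gamma. CIITA encodes the coactivator that switches the class II genes on. It does not bind DNA itself but docks on RFX, CREB and NF-Y proteins that sit on the X and Y boxes of the promoters of these genes. CD74 encodes the invariant chain, which fills the groove of new class II dimers and guides them to endosomes. HLA-DRB1 and HLA-DRB5 encode beta chains that pair with the DR alpha chain, whose gene, HLA-DRA, was not analysed here.

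The promoters of the class II genes and of CD74 share a layout on which CIITA acts, and the stretches that hold it are shown because this is a feature the choice of genes did not use. They are read from the RefSeq promoter table for GRCh38.p14, in which 3 of the 4 genes matched and HLA-DQB1 was added as the class II gene with the most counts. Each runs 5′ to 3′ on the minus strand, with capitals on CCAGNNAC, an X-box-like stretch, and on ATTGG or its reverse complement CCAAT, the core that NF-Y recognises in a Y box.
HLA-DRB1, chr6:32589884-32589935: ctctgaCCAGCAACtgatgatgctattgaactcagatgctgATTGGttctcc
HLA-DRB5, chr6:32530367-32530418: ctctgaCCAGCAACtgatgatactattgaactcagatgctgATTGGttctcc
HLA-DQB1, chr6:32666735-32666786: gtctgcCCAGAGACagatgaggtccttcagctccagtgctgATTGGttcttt
CD74, chr5:150412953-150412999: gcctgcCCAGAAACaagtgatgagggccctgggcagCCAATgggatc

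The capitals are separated by 27 bases in the HLA-DRB1, HLA-DRB5 and HLA-DQB1 stretches and by 22 bases in that of CD74, where the pentamer lies on the other strand. HLA-DRB1 and HLA-DRB5 differed at 1 of the 52 bases, G22A counted from the 5′ end with HLA-DRB1 first, whereas HLA-DRB1 and HLA-DQB1 differed at 16 of the 52. CCAGNNAC and ATTGG were chosen after these sequences had been read. Over 35116 RefSeq promoters of 250 bases before and 50 after the start, on both strands, CCAGNNAC occurred in 21.0% and ATTGG in 34.6%. CCAGNNAC followed within 60 bases on the promoter's own strand by ATTGG or CCAAT occurred in 0.908%. Of the motifs chosen without reading the sequences, GATTGG, which contains ATTGG, was found in the HLA-DRB1, HLA-DRB5 and HLA-DQB1 promoters and in 15.1% of all promoters. CTAGNAAC for the X box (2.75% of all), TGCGTCA for the X2 box (2.47%) and AANNGAAA for interferon regulatory factors (22.8%) were not found in the windows of HLA-DRB1, HLA-DRB5 or CD74. In the window of HLA-DQB1 only AANNGAAA of these was found, on the other strand. The window of the class II gene HLA-DQA1 held CTAGNAAC and ATTGG but not CCAGNNAC.

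The libraries held 19803707 to 22698069 counts. Of the 12264 genes tested, 51.2% were called, with 3199 higher and 3086 lower in si-YTHDF2, and scaling by library totals alone gave 3860 higher and 2433 lower, with the median log2 fold change at 0.076 against 0.0105. YTHDF2 itself had 42.98, 48.36 and 43.46 CPM (counts per 1000000 counts of the library, scaled with TMM factors) in si-YTHDF2 and 74.6, 77.52 and 83.84 CPM in NC. The 2 groups did not overlap, and 57.1% of the NC mean was left (log2 fold change -0.81 ± 0.07, SE; quasi-likelihood test of edgeR, adjusted p = 4.13e-07 after Benjamini and Hochberg over all genes tested; exact two-sided permutation test, p = 0.1, the smallest that 3 against 3 allow). All 10 keratinocyte markers on a prepared list had counts, and they summed to between 5101 and 5649 CPM in si-YTHDF2 and between 5721 and 5949 CPM in NC. Of these 2 rose and 4 fell. KRT15, a keratin of basal cells, fell to 264 ± 13.0 CPM in si-YTHDF2, against 865 ± 31.5 CPM in NC (SD, n = 3 each), or -1.71 as log2 fold change (edgeR, adjusted p = 2.35e-11). The desmosomal cadherin DSC3 (-0.79) and TP63 (-0.29) also fell. The 2 that rose were COL17A1 (0.64) and KRT5 (0.23), the latter at 2384 CPM in si-YTHDF2 and 2029 CPM in NC. KRT14, the keratin partner of KRT5, averaged 2.00 ± 0.19 CPM in si-YTHDF2 and 2.22 ± 2.00 CPM in NC (SD, n = 3 each). Its counts were low, with 42, 48 and 38 in si-YTHDF2, and in NC also spread, with 12, 33 and 98. The part of these differences in the class II levels was not tested. Replicate 1 of si-YTHDF2 stood apart, with a chi-square per gene of 12.1 and 13.5 against the other 2 libraries of its group, which gave 3.67 between them. Without it the log2 fold changes described next were -1.30 for CIITA, -2.07 for CD74, -1.84 for HLA-DRB1 and -2.10 for HLA-DRB5.

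CIITA (ENSG00000179583; chromosome 16, plus strand, 10866222 to 10943021, GRCh38) was lower in si-YTHDF2. It had 139, 127 and 161 counts in si-YTHDF2, against 358, 325 and 413 in NC. This gives 6.71 ± 1.17 CPM in si-YTHDF2 and 17.2 ± 1.29 CPM in NC (SD, n = 3 each). The highest si-YTHDF2 library, replicate 3 at 8.04 CPM, lay below the lowest NC library at 16.4 CPM, and 39.1% of the NC mean was left. The log2 fold change was -1.36 ± 0.13 (SE). In order of log2 fold change, lowest first, it stood at place 287 of 12264 genes tested.

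CD74 (ENSG00000019582), on the minus strand of chromosome 5 from 150401637 to 150412929, had 146, 202 and 156 counts in si-YTHDF2 and 792, 753 and 749 in NC. Its level was 7.89 ± 1.39 CPM in si-YTHDF2 and 36.1 ± 2.20 CPM in NC (SD, n = 3 each). All si-YTHDF2 libraries lay between 6.55 and 9.32 CPM and all NC libraries between 33.9 and 38.3 CPM. Of the 4 genes it kept the smallest part of its NC mean, 21.8%. The log2 fold change was -2.19 ± 0.11 (SE), place 82 of those tested.

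HLA-DRB1 (ENSG00000196126), on the minus strand of chromosome 6 from 32578769 to 32589848, had 54, 103 and 73 counts in si-YTHDF2, against 340, 279 and 349 in NC. The si-YTHDF2 libraries were spread, with 2.42 CPM in replicate 1 and 4.75 CPM in replicate 2, while the NC libraries lay between 14.2 and 15.8 CPM. The groups did not overlap, and 23.8% of the NC mean was left (log2 fold change -2.07 ± 0.19, SE). Without si-YTHDF2 replicate 2 the log2 fold change was -2.33.

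HLA-DRB5 (ENSG00000198502) lies beside HLA-DRB1, on the same strand from 32517343 to 32530287, and is carried only by some HLA haplotypes. It had the fewest counts of the 4, with 27, 20 and 23 in si-YTHDF2 and 70, 115 and 98 in NC. Its level was 1.09 ± 0.15 CPM in si-YTHDF2 and 4.49 ± 1.32 CPM in NC (SD, n = 3 each). Here the NC libraries were the more spread, with 3.20 CPM in replicate 1 and 5.84 CPM in replicate 2, and still lay above every si-YTHDF2 library. The mean left was 24.4% of NC and the log2 fold change -2.03 ± 0.28 (SE).

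In all 4 genes the si-YTHDF2 libraries lay below all NC libraries, which was also so in 28.7% of the 12264 genes tested, while 29.9% had all si-YTHDF2 libraries above and 58.5% did not overlap in either direction. The log2 fold changes of CD74, HLA-DRB1 and HLA-DRB5 differed by less than the standard error of the HLA-DRB5 value. A log2 fold change of -2 or below, which these 3 had, was found in 0.913% of all genes, and one of -1 or below in 4.09%. Because the genes were chosen for this difference, these shares describe their place and support nothing. In libraries made from many cells, fewer cells with class II RNA and less of it per cell cannot be told apart.

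**Figure D1:**
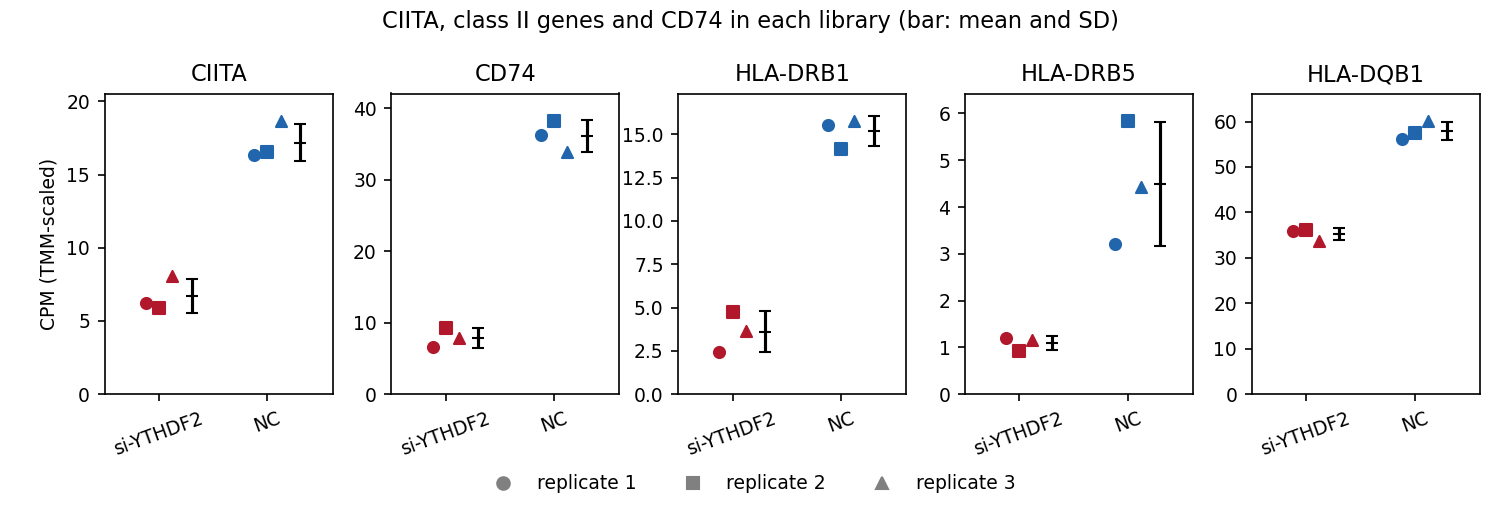
Level in CPM of CIITA, CD74, HLA-DRB1, HLA-DRB5 and HLA-DQB1 in each library, si-YTHDF2 (red) left of NC (blue), with symbols for the replicate numbers and black bars for the mean and SD of 3 libraries; the vertical scale differs between panels. The groups do not overlap in any panel, and the gap is smallest relative to the level for HLA-DQB1, at 35.2 against 57.9 CPM.

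Levels were compared between genes per kilobase of transcript, taking for each gene the transcript of median length among those with a consensus coding sequence in GENCODE 29. In NC the order was CD74 at 31.7 ± 1.94, HLA-DRB1 at 12.3 ± 0.71, CIITA at 3.69 ± 0.28 and HLA-DRB5 at 3.56 ± 1.05 CPM per kb (SD, n = 3 each). CIITA and HLA-DRB5 overlapped in NC and are not ordered by these values. In si-YTHDF2 the order was CD74 at 6.93 ± 1.22, HLA-DRB1 at 2.94 ± 0.95, CIITA at 1.44 ± 0.25 and HLA-DRB5 at 0.87 ± 0.12 CPM per kb (SD, n = 3 each). There each gene's libraries lay above all those of the next.

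The place of CIITA depends on its length: its annotated transcripts of this kind run from 2344 to 16059 bases. With the shortest it would stand at 2.86 CPM per kb in si-YTHDF2 and 7.33 in NC, and with the longest at 0.418 in si-YTHDF2 and 1.07 in NC, below HLA-DRB5 in both groups. For CD74 the range of 981 to 1449 bases changes no place.

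CD74 was lower relative to CIITA in si-YTHDF2, whereas HLA-DRB1 kept its proportion to CD74 within the spread. The ratio of CD74 to CIITA per kb was 4.30, 6.51 and 3.97 in the si-YTHDF2 libraries, against 9.05, 9.48 and 7.42 in NC. The ratio of HLA-DRB1 to CD74 was 0.416 ± 0.067 in si-YTHDF2 and 0.391 ± 0.045 in NC (SD, n = 3 each), and the groups overlapped. These ratios use the same counts as the fold changes and are given as a description.

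**Figure D2:**
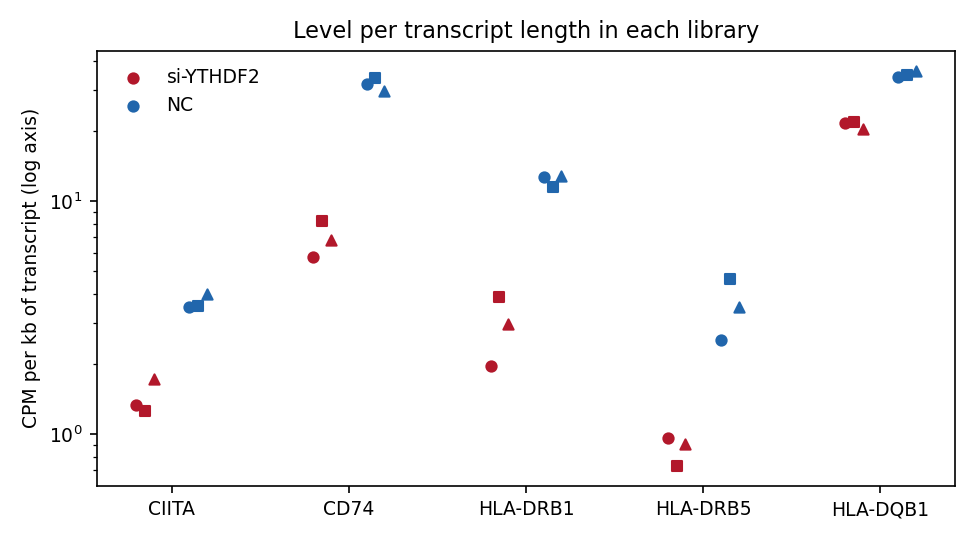
Level per kilobase of transcript (log axis) of the 4 genes and HLA-DQB1 in each library, si-YTHDF2 (red) left of NC (blue), circles, squares and triangles for replicates 1, 2 and 3. CD74 is the highest of the 4 genes in both groups, at a mean of 6.93 in si-YTHDF2 and 31.7 in NC, and HLA-DQB1 is the gene whose groups lie closest.

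HLA-DRB1 and HLA-DRB5 are close relatives, and how the authors assigned reads that fit both is not given in the sources used here. Of the 1211 windows of 50 bases in the HLA-DRB5 transcript, 102 (8.42%) were also found letter for letter in the HLA-DRB1 transcript, and of the windows of 100 bases 0 were. Of all counts on the pair, HLA-DRB5 held 33.3% (95% interval 23.2 to 44.7), 16.3% (10.2 to 24) and 24% (15.8 to 33.7) in si-YTHDF2 replicates 1, 2 and 3. In NC replicates 1, 2 and 3 it held 17.1% (13.6 to 21.1), 29.2% (24.7 to 33.9) and 21.9% (18.2 to 26.1). The intervals are exact binomial ones and cover counting error only. The shares of the 2 groups overlapped, with 24.5% ± 8.51 in si-YTHDF2 and 22.7% ± 6.09 in NC (SD, n = 3 each), and NC replicates 1 and 2 differed from each other by more than their intervals. With the counts of both genes added together the log2 fold change was -2.06 ± 0.14 (SE), an alternative chosen after seeing the data.

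**Figure D3:**
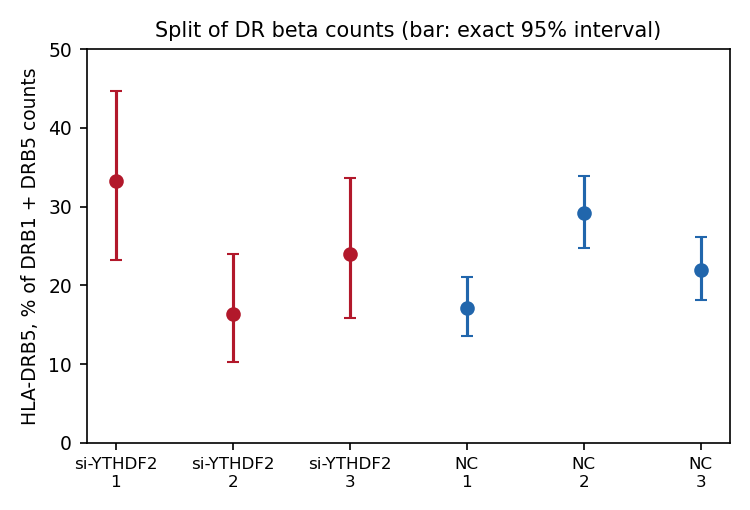
Share of HLA-DRB5 in the counts of HLA-DRB1 and HLA-DRB5 together, in percent, for each si-YTHDF2 (red) and NC (blue) library, with bars for the exact 95% binomial interval. The si-YTHDF2 shares, 16.3% to 33.3%, span the NC shares, 17.1% to 29.2%.

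YTHDF2 binds N6-methyladenosine, which is laid down mostly in the sequence GGACU and its variants. Methylation was not measured here. In the transcript used for length, GGACT in DNA letters occurred 6 times in CIITA (1.29 per kb), 0 times in CD74, 1 time in HLA-DRB1 (0.814 per kb) and 5 times in HLA-DRB5 (3.97 per kb). Over 12241 tested genes with a transcript the median was 0.96 per kb, with HLA-DRB5 at the 99.5th percentile and CD74 among the genes with no match. Variants of the sequence and other transcripts were not counted, and a part of YTHDF2 binding in these levels was not tested.

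Of 13 symbols for other class II chains and chaperones 3 were in the table used, and HLA-DQB1, the beta chain of DQ, was the 1 that passed the filter on low counts. The DP chain genes HLA-DPA1 and HLA-DPB1 and the loading factor HLA-DMA, like HLA-DRA, were not analysed here. It had 799, 781 and 673 counts in si-YTHDF2 and 1228, 1130 and 1331 in NC, and fell to 35.2 ± 1.35 CPM in si-YTHDF2, against 57.9 ± 2.04 CPM in NC (SD, n = 3 each). The log2 fold change was -0.72 ± 0.06 (SE; edgeR, adjusted p = 7.93e-07), and all si-YTHDF2 libraries lay below all NC libraries. Per kilobase it was the most abundant class II chain measured, at 21.2 ± 0.81 CPM per kb in si-YTHDF2 and 35.0 ± 1.23 in NC (SD, n = 3 each). HLA-DRB1 stood at 0.138 ± 0.044 of the HLA-DQB1 level per kb in si-YTHDF2 and at 0.353 ± 0.020 in NC (SD, n = 3 each). The partner chain gene HLA-DQA1 had 6, 7 and 4 counts in si-YTHDF2 and 1, 4 and 6 in NC, and HLA-DMB, a chaperone of peptide loading, had 1 count in the 6 libraries together. HLA genes vary between people, and whether the alleles of the line match the reference equally well for each gene was not tested.

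A set of 4 prepared lists with 54 symbols covers the other class II chains and their chaperones, the factors at class II promoters, the proteins of invariant chain cleavage and class II turnover, and the route from interferon-gamma to CIITA. HLA-DQB1 is the single tested gene of the first list and is counted here. Of 39 tested, 11 (28.2%) rose and 14 (35.9%) fell at an adjusted p below 0.05 from edgeR, where 26.1% of all genes tested rose and 25.2% fell. The median log2 fold change of the 39 was 0.00, beside 0.01 for all genes.

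**Figure D4:**
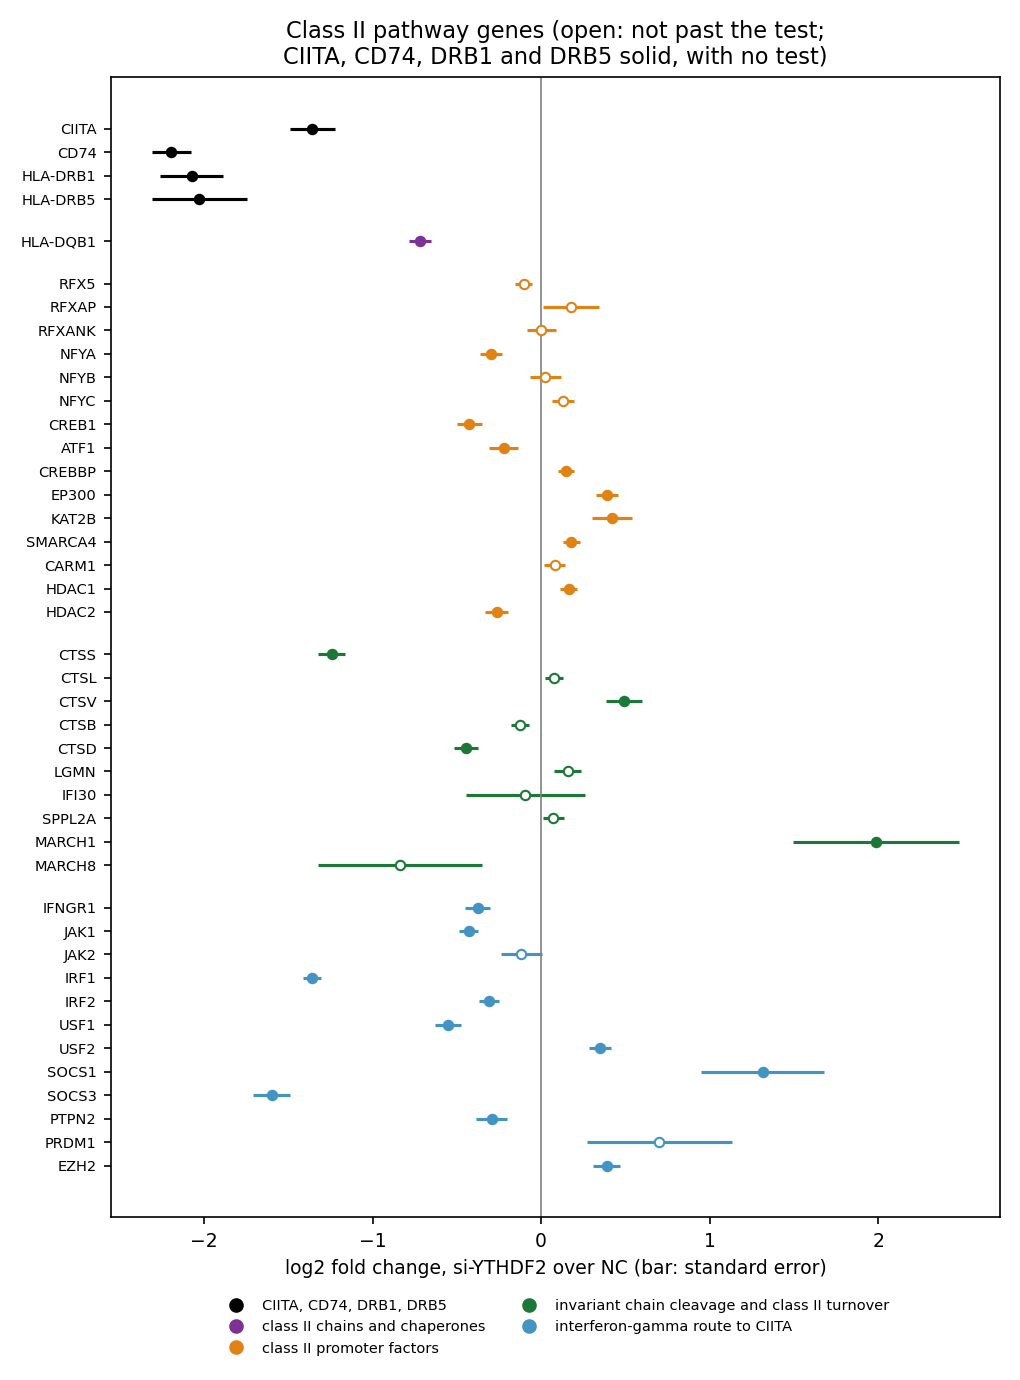
Log2 fold change, si-YTHDF2 over NC, with its standard error, for CIITA, CD74, HLA-DRB1 and HLA-DRB5 at the top and tested genes of the 4 class II lists below; filled points passed edgeR's test (the first 4 are drawn filled without one). The lists divide around 0, with SOCS3 (-1.60), IRF1 (-1.36) and CTSS (-1.24) the lowest and MARCH1 (1.99) the highest.

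Of 15 tested factors that act at class II promoters, deacetylases included, 5 rose (33.3%) and 4 fell (26.7%). The shares over all genes tested were 26.1% and 25.2%. The median log2 fold change of the 15 factors was 0.08. The 3 subunits of RFX, the X-box complex, did not pass the test: RFX5 had a log2 fold change of -0.10 ± 0.05, RFXAP of 0.18 ± 0.17 and RFXANK of 0.00 ± 0.09 (SE; edgeR, adjusted p = 0.110, 0.403 and 0.997). Of the NF-Y subunits, NFYA fell (-0.30; edgeR, adjusted p = 0.00191), while NFYB (0.02) and NFYC (0.13) did not pass. CREB1, which binds the X2 box, fell to 42.5 ± 4.14 CPM in si-YTHDF2, against 57.2 ± 1.69 CPM in NC (SD, n = 3 each), or -0.43 as log2 fold change (edgeR, adjusted p = 3.19e-04). The acetyltransferases EP300 (0.39), KAT2B (0.42) and CREBBP (0.15) and the remodelling ATPase SMARCA4 (0.18) rose. The deacetylase HDAC1 rose (0.16) and HDAC2 fell (-0.26), and the CREB-like ATF1 fell (-0.22; edgeR, adjusted p = 0.0444). With 1 library left out, which also leaves fewer libraries to test, 3 of these calls were lost. That of ATF1 was lost without any one library other than si-YTHDF2 replicate 1 (adjusted p of edgeR 0.0535 to 0.212). That of CREBBP was lost without si-YTHDF2 replicate 3 or any NC library (adjusted p of edgeR 0.0509 to 0.0903). That of HDAC1 was lost without si-YTHDF2 replicate 3, NC replicate 2 or NC replicate 3 (adjusted p of edgeR 0.0602 to 0.0769). In these fits the log2 fold change lay between -0.29 and -0.13 for ATF1, 0.125 and 0.16 for CREBBP, and 0.14 and 0.19 for HDAC1. The methyltransferase CARM1 (0.08) did not pass, but did without si-YTHDF2 replicate 1 (0.13; edgeR, adjusted p = 0.0395). Scaling by library totals alone also lost the call of ATF1 (edgeR, adjusted p = 0.164), and NFYC then passed (0.19; edgeR, adjusted p = 0.0207).

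On the route from interferon-gamma to CIITA 7 of 13 tested genes (53.8%) fell and 4 (30.8%) rose, beside 25.2% and 26.1% of all genes tested. IRF1, a transcription factor that acts at the interferon-responsive promoter of CIITA, had 2743, 2877 and 2771 counts in si-YTHDF2 and 7253, 6702 and 7514 in NC. Its level was 131 ± 7.77 CPM in si-YTHDF2 and 337 ± 4.81 CPM in NC (SD, n = 3 each; log2 fold change -1.36 ± 0.05, SE; edgeR, adjusted p = 2.69e-10), beside -1.36 for CIITA. USF1, a partner at the same promoter, fell (-0.55; edgeR, adjusted p = 6.30e-05), as did IRF2 (-0.31), the receptor chain IFNGR1 (-0.38) and the kinase JAK1 (-0.43). USF2 (0.35), a relative of USF1, rose (edgeR, adjusted p = 5.78e-04).

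JAK2 (-0.12) did not pass (edgeR, adjusted p = 0.444). Of the inhibitors of this route SOCS3 fell (-1.60; edgeR, adjusted p = 6.74e-08) and so did the phosphatase PTPN2 (-0.29). The call of PTPN2 was lost without si-YTHDF2 replicate 2 (edgeR, adjusted p = 0.0798) and with library totals alone (edgeR, adjusted p = 0.0609). SOCS1 rose at low counts, with 25, 35 and 37 counts in si-YTHDF2 and 17, 9 and 13 in NC (1.31; edgeR, adjusted p = 0.00843). The methyltransferase EZH2 rose (0.39; edgeR, adjusted p = 0.00131). PRDM1, a repressor of CIITA in plasma cells, had 28, 16 and 14 counts in si-YTHDF2 and 8, 15 and 12 in NC and did not pass (0.70 ± 0.43, SE; edgeR, adjusted p = 0.194). The receptor chain IFNGR2 was below the filter, with 102 counts in si-YTHDF2 replicate 1, 7 and 3 in the other 2 libraries of that group, and 8, 8 and 9 in NC.

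Among 10 tested genes of invariant chain cleavage and class II turnover 2 rose and 2 fell. Both shares were smaller than those over all genes tested, of which 26.1% rose and 25.2% fell. CTSS, the cathepsin that makes the last cuts of the invariant chain in antigen-presenting cells, fell to 23.01 ± 2.43 CPM in si-YTHDF2, against 54.5 ± 0.54 CPM in NC (SD, n = 3 each; log2 fold change -1.24 ± 0.08, SE; edgeR, adjusted p = 3.16e-08). CTSD fell (-0.44; edgeR, adjusted p = 1.40e-04). CTSV, which does the work of CTSS in thymic epithelium, rose (0.49; edgeR, adjusted p = 0.00185). CTSL (0.07), CTSB (-0.12), LGMN (0.16), SPPL2A (0.07) and the thiol reductase IFI30 (-0.09) did not pass, and LGMN did without si-YTHDF2 replicate 1 (0.24; edgeR, adjusted p = 0.00794). With library totals alone CTSL (0.14; edgeR, adjusted p = 0.0456) and LGMN (0.22; edgeR, adjusted p = 0.0326) passed. CTSB passed with DESeq2 (-0.13; DESeq2, adjusted p = 0.0404). MARCH1, a ubiquitin ligase that takes class II off the surface of dendritic and B cells, rose at low counts of 25, 22 and 18 in si-YTHDF2 and 9, 5 and 2 in NC (1.99 ± 0.49, SE; edgeR, adjusted p = 0.00423). Its relative MARCH8 had 540 counts in NC replicate 1 alone, against 64 and 166 in the other NC libraries and 125, 128 and 169 in si-YTHDF2. Its log2 fold change of -0.84 did not pass (edgeR, adjusted p = 0.167), was 0.29 without NC replicate 1, and passed without NC replicate 2 (-1.28; edgeR, adjusted p = 0.0105).

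CD74 also serves as a surface receptor for the cytokine MIF, with CD44 or a chemokine receptor as partner. Of the 3 partners tested CXCR2 fell, with 22, 24 and 16 counts in si-YTHDF2 and 81, 68 and 72 in NC (log2 fold change -1.84; edgeR, adjusted p = 5.40e-05). CD44 was at 819 ± 18.5 CPM in si-YTHDF2 and 807 ± 28.1 CPM in NC (SD, n = 3 each; edgeR, adjusted p = 0.731), and ACKR3 did not pass (0.11; edgeR, adjusted p = 0.348) except without si-YTHDF2 replicate 1 (0.20; edgeR, adjusted p = 0.0488). MIF itself was not analysed here.

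Of the costimulatory genes that work with class II in antigen presentation, 4 were tested. CD86 fell (-1.95 ± 0.25, SE; edgeR, adjusted p = 2.00e-05), with 23, 21 and 20 counts in si-YTHDF2 and 81, 85 and 80 in NC. The adhesion molecule ICAM1 rose (0.59; edgeR, adjusted p = 2.54e-04). CD83 (0.40) and CD58 (-0.04) did not pass, and CD80 had 1 count in all libraries together. CD83 did pass without si-YTHDF2 replicate 2 (0.55; edgeR, adjusted p = 0.0161) and with library totals alone (0.47; edgeR, adjusted p = 0.0349).

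NLRC5, which does for class I what CIITA does for class II and belongs to the same protein family, rose to 50.9 ± 1.26 CPM in si-YTHDF2, against 23.9 ± 1.48 CPM in NC (SD, n = 3 each; log2 fold change 1.09 ± 0.07, SE; edgeR, adjusted p = 4.42e-08). Of 11 tested class I genes 1 (9.09%) rose, NLRC5 itself, and 2 (18.2%) fell (ERAP1, -0.48, and PSMB10, -0.75), beside 26.1% and 25.2% of all genes tested, and HLA-B (0.10) and B2M (-0.08) did not pass.

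Markers of professional class II cells and of other blood cells were read from the prepared lists, and most were higher in si-YTHDF2. Over the B cell, myeloid, Langerhans, T and NK and pan-leukocyte lists, leaving out LCP1, which averaged 428 CPM in si-YTHDF2 and 292 CPM in NC, 32 markers were in the table. They summed to between 32.3 and 33.8 CPM in si-YTHDF2 and between 6.42 and 7.67 CPM in NC. The mean was higher in si-YTHDF2 for 30 of the 32, and 5 were at 0 in all NC libraries, among them CD52, FCER1A, NKG7 and SPI1. Of 11 tested 9 (81.8%) rose and 1 (9.09%) fell, beside 26.1% and 25.2% of all genes tested. The B cell list summed to between 7.19 and 8.95 CPM in si-YTHDF2 and between 0.362 and 0.406 CPM in NC. The Langerhans cell list, CD207 and CD1A, summed to at most 0.15 CPM in si-YTHDF2 and 0.09 CPM in NC. PTPRC, the pan-leukocyte CD45, had 73, 106 and 95 counts in si-YTHDF2 and 6, 4 and 5 in NC, and LYZ 153, 123 and 165 in si-YTHDF2 and 9, 13 and 8 in NC. CD14 was the marker of these lists that fell (-0.72; edgeR, adjusted p = 0.0255).

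All 8 tested genes of the erythroid and platelet list rose, as did 26.1% of all genes tested. The list summed to between 1550 and 1781 CPM in si-YTHDF2 and between 55.9 and 58.5 CPM in NC. The 4 genes of interest summed to between 16.4 and 20.9 CPM in si-YTHDF2 and between 71.4 and 74.8 CPM in NC, the reverse direction. The source of these transcripts and their part in the class II levels were not tested.

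**Figure D5:**
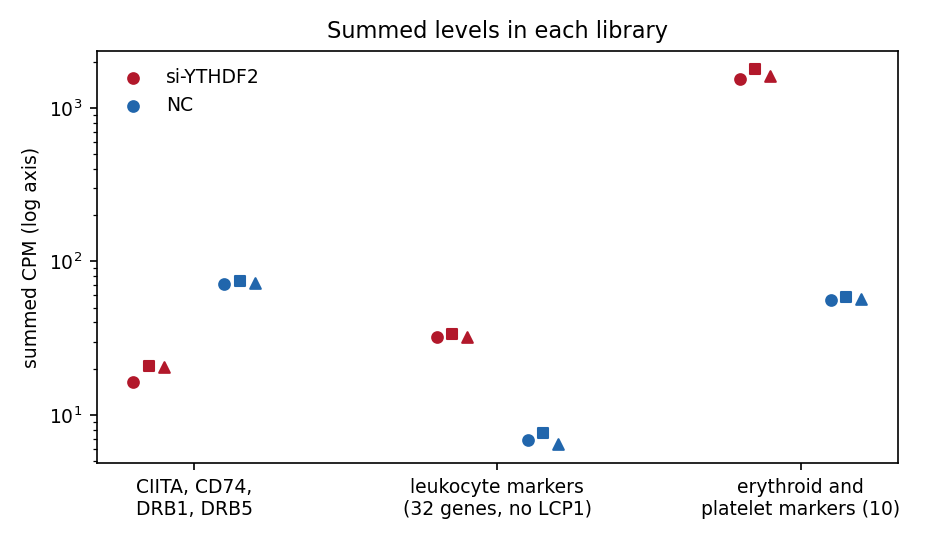
Summed CPM (log axis) of CIITA, CD74, HLA-DRB1 and HLA-DRB5, of 32 leukocyte markers without LCP1, and of 10 erythroid and platelet markers in each library, si-YTHDF2 (red) left of NC (blue), circles, squares and triangles for replicates 1, 2 and 3. The first set is lower in si-YTHDF2, at most 20.9 against at least 71.4 CPM, and the other 2 sets are higher in si-YTHDF2.

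Over the 6 libraries the genes with the most similar profiles were found by the distance between log2 CPM values, each gene centred on its own mean, among genes with a mean log2 CPM of at least 1 (10959 other genes). Nearest to CIITA were the receptor kinase FGFR3 (distance 0.233), GSDMB of the gasdermin family (0.251) and TMEM139 (0.258). Nearest to CD74 were POU2F3 (0.159), a POU-domain transcription factor of epidermis, KLK7 (0.268), a protease of skin shedding, and ID3 (0.296). Nearest to HLA-DRB1 were POU2F3 (0.332), SECTM1 (0.376) and KLK7 (0.389), with CD74 next at 0.42. Nearest to HLA-DRB5 were CD86 (0.522), ZNF467 (0.534) and TEX19 (0.536). Counted from CIITA, CD74 stood at place 1280, HLA-DRB1 at place 1302 and HLA-DRB5 at place 636. The measure takes in the difference between the groups and so mainly ranks genes by the size of their fold change.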

How the data were processed

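The deposited table holds raw counts per gene and library made by the authors, per the file headers; the submitters' processing notes name hg38, and for aligner, counting program and strand, the sources used here give nothing. A further 6 columns of values normalized by edgeR were not used. All 16551 genes are protein-coding by the table's own column; 2 lines were empty. For 12 identifiers whose symbol occurs more than once, the one with fewer counts keeps its identifier as name. GENCODE 29 matched 16546 identifiers.

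Counts were tested with edgeR 4.0.16 (R 4.3.3): TMM factors, filterByExpr, quasi-likelihood test, no covariate, Benjamini-Hochberg adjustment over 12264 genes, call at 0.05. The standard error is the log2 fold change divided by the square root of F. Log2 CPM used a prior count of 2. The procedure was tested on simulated data. Alternatives were other scaling factors, DESeq2 1.42.0, limma-voom (limma 3.58.1), other filters, a stricter threshold, a block for the replicate number, and each library left out in turn.

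The 4 genes and the lists were chosen with earlier results of these data known. The genes named are YTHDF2, these 4, the genes of the class II lists with counts, up to 4 genes of smallest p from each other list, and the 3 nearest profiles. HLA-B, B2M, CD14, CD80, IFNGR2, HLA-DQA1, HLA-DMB, KRT14, KRT5, CD207, CD1A and the markers at 0 were added after their values were seen. Results of some listed genes are not reported here.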

Additional observations from a re-analysis of the deposited data

How the results depend on the processing

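The log2 fold changes of the 4 genes moved by less than 1 SD of the replicates under all 14 alternatives: CIITA lay between -1.51 and -1.27, CD74 between -2.33 and -2.07, HLA-DRB1 between -2.33 and -1.84 and HLA-DRB5 between -2.22 and -1.80, each end coming from leaving out 1 library. The HLA-DRB5 share lay between 20.1% and 28.6% in si-YTHDF2 and between 19.5% and 25.5% in NC with 1 library left out. Over all genes 2342 to 3860 were called higher and 2314 to 3335 lower, the low ends at an adjusted p under 0.01, and of the class II lists 9 to 14 higher and 12 to 15 lower. Same-numbered libraries deviated together with correlations of 0.0553, 0.0524 and 0.0349, too low to pair them by the limit of 0.1, although each correlated best with its own number, a hint from the data and not the design. With the replicate block 3265 genes were called higher and 3173 lower, and the log2 fold changes were -1.36 for CIITA, -2.20 for CD74, -2.10 for HLA-DRB1 and -1.995 for HLA-DRB5. Of 76 other named genes 58 kept call and direction, 4 lost a call, 9 gained one and 7 turned direction, none of the 7 past the test in the reported fit; the cause was not tested. RFXANK was 0.065 with library totals, 0.0070 with limma-voom, 0.0030 with a mean count of at least 50, 0.0038 with the replicate block, and -0.077 to 0.089 with 1 library left out. CD58 was 0.030 with library totals and -0.14 to 0.065 with 1 library left out. With 1 library left out the others that turned were NFYB (-0.077 to 0.097), IFI30 (-0.40 to 0.18), MARCH8 (-1.28 to 0.29), ACKR3 (-0.0034 to 0.20) and CD44 (-0.0073 to 0.045). HLA-DRB5 had 20 to 115 counts a library, which limits its precision.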
